A study of Mus musculus with 6 samples.

Results

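A set of 10 genes of the autophagy machinery was followed in RAW264.7, a macrophage-like line of mouse origin, after 24 h with 25-HC or with vehicle. They are the selective autophagy receptors Sqstm1, Nbr1 and Optn, the ATG8-like genes Map1lc3a, Map1lc3b, Gabarap, Gabarapl1 and Gabarapl2, the initiating kinase gene Ulk1 and the phosphoinositide-binding gene Wipi1. These 10 of the 56636 rows of the deposited table were taken by gene symbol. The rule used no expression value, but the members were chosen with earlier results of these data known. Both groups were labelled as wild-type mononuclear macrophages of the RAW264.7 line, grown in medium with serum and antibiotics, and each held 3 libraries of bulk RNA. No dose and no full name of 25-HC is given by the labels used here, and nothing in them says that libraries came from separate cultures, so p-values measure only the spread between libraries, which may be technical.

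Macroautophagy encloses cytoplasm in a double membrane that later fuses with the lysosome. ULK1 kinase starts the process, WIPI proteins bind the phosphoinositide made at the site of formation, and small ubiquitin-like proteins of the ATG8 family (the LC3 and GABARAP subfamilies) are coupled to lipid on the growing membrane. Receptors such as SQSTM1 (also called p62), NBR1 and optineurin bind ubiquitinated cargo with 1 part of the protein and ATG8-like proteins with another, and SQSTM1 is itself degraded with its cargo. In macrophages the pathway is known for clearing bacteria, damaged organelles and protein aggregates. All values here are of RNA, which does not measure the flow through the pathway.

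Values are TPM (transcript abundance that the authors scaled for transcript length and library total), which leaves the depth of sequencing unknown. In bulk RNA, fewer cells of a type and less RNA per cell cannot be told apart. The 25-HC libraries were alike, with 11971 to 12005 genes at 1 TPM or more, while the vehicle libraries ranged from 9492 genes in vehicle 2 to 11994 in vehicle 3. Of 10 macrophage markers 7 were at 1 TPM or more in every library, and their sum was 2537 to 2558 TPM in 25-HC and 1735 to 2595 TPM in vehicle. Mrc1 was listed at 0 throughout, and Itgam and Ptprc were below 1 TPM in at least 1 library. Marker lists of T cells, B cells, dendritic cells, neutrophils, epithelial cells and fibroblasts summed to at most 2.57 TPM each in any library. Over all 12092 genes tested, the median log2 difference between 25-HC and vehicle was 0.52, which was not subtracted from the differences below. That median was 0.13 without vehicle 2 and -0.071 against vehicle 3 alone, and its cause was not tested.

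In 25-HC the receptor gene Sqstm1 was the most abundant of the 10 and stood above every vehicle library, while the ATG8-like genes overlapped between the groups, singly and as a sum. Wipi1, too, was higher in all treated libraries than in any vehicle library. Nbr1 and Ulk1 had higher means in 25-HC but overlapped vehicle 3, and Optn was barely detected. None of the 9 members that passed the filter of a mean of at least 1 TPM passed the limma test over all genes (Benjamini-Hochberg adjusted p of at least 0.389). An unadjusted limma p under 0.05 was reached by 1 of the 9, Sqstm1, and by 1352 of the 12092 genes tested. That test called 0.00827% of all genes tested, a single gene that is no member. Of the 9 members 2 had every 25-HC library above every vehicle library, against 22.6% of all genes, and none had every 25-HC library below, against 8.10% of all genes.

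**Figure D1:**
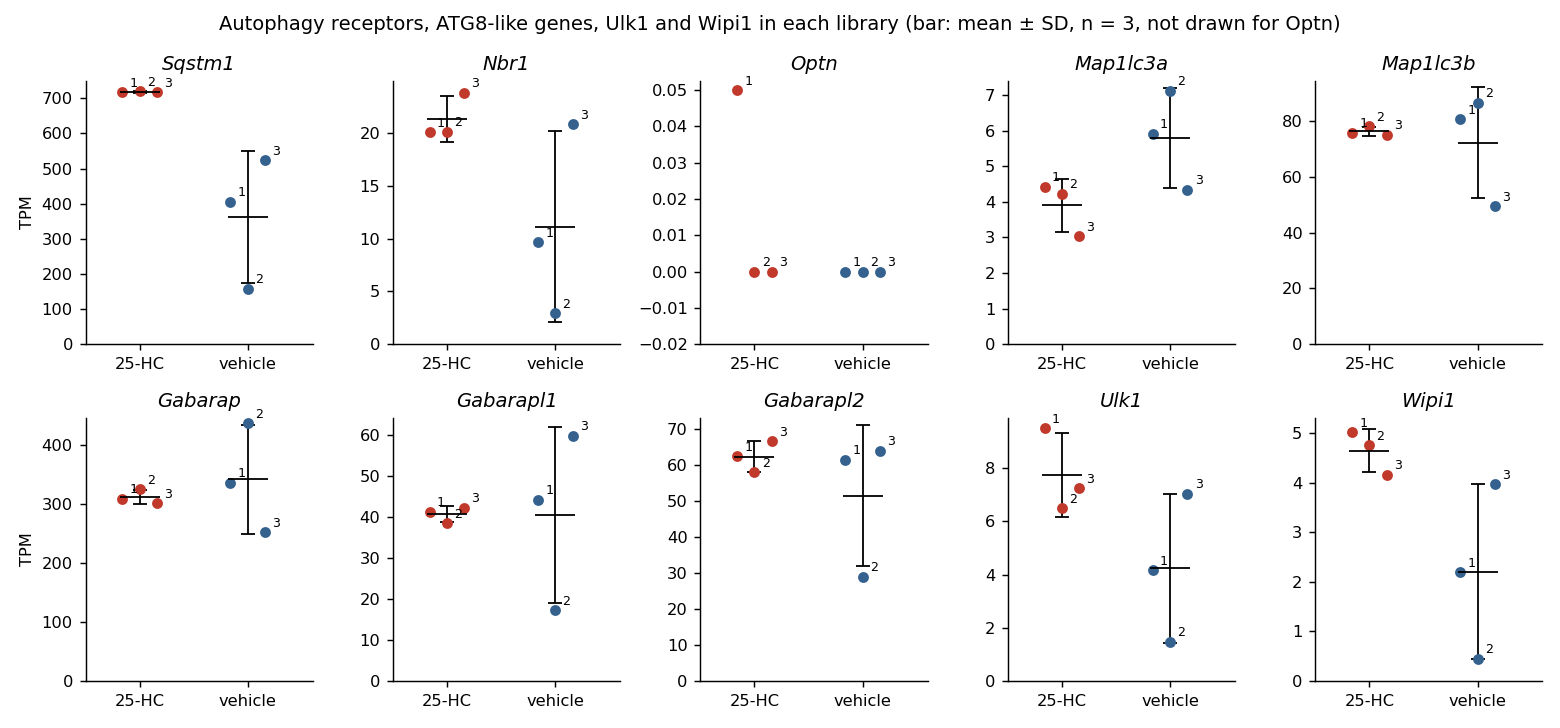
TPM (linear axes) of each of the 10 genes in the 3 libraries with 25-HC (red) and the 3 with vehicle (blue), numbered by replicate; black bars give the mean and SD (n = 3), and Optn has none. Sqstm1 sits at 717 to 721 TPM in 25-HC and at 158 to 524 TPM in vehicle, and vehicle 2 is the lowest library for 6 genes but the highest for Map1lc3a, Map1lc3b and Gabarap.

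The order of the levels was the same in all 3 libraries with 25-HC. Sqstm1 came first, then Gabarap, Map1lc3b, Gabarapl2, Gabarapl1, Nbr1, Ulk1, Wipi1, Map1lc3a and Optn. Among neighbours in that order, only the ranges of Wipi1 (4.17 to 5.02 TPM) and Map1lc3a (3.04 to 4.42 TPM) overlapped across the 25-HC libraries. The vehicle libraries did not share an order. Gabarap stood above Sqstm1 in vehicle 2, and Map1lc3b stood above Gabarapl2 and Gabarapl1 in vehicle 1 and 2 but below both in vehicle 3. Across the vehicle libraries the ranges of Sqstm1 and Gabarap overlapped, as did those of Map1lc3b, Gabarapl2 and Gabarapl1, and those of Nbr1 with Map1lc3a, Ulk1 and Wipi1, while Map1lc3a (4.34 to 7.12 TPM) lay above Wipi1 (0.45 to 3.98 TPM).

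Among the receptors, Sqstm1 (ENSMUSG00000015837), which encodes p62, was listed at 717, 721 and 717 TPM in the 25-HC libraries 1, 2 and 3, against 405, 158 and 524 TPM in vehicle 1, 2 and 3. The coefficient of variation was 0.301% among the 25-HC libraries and 51.6% among the vehicle libraries, and the groups did not overlap. The means were 718 ± 2.16 TPM in 25-HC and 362 ± 187 TPM in vehicle (SD, n = 3 each), a ratio of 1.98, with a log2 difference of 1.15 (SE 0.44, 95% interval 0.080 to 2.23, limma unadjusted p = 0.0390, adjusted p = 0.389). Relative to the median of all genes the difference was 0.63. It was 0.64 without vehicle 2, which is the lowest library (adjusted p = 0.125 by limma). Relative to vehicle 3, the vehicle library nearest to the treated ones, the mean of 25-HC was 1.37-fold. Median-ratio rescaling, which divides each library by 1 factor so that the typical gene is level, gave Sqstm1 565, 579 and 567 in 25-HC and 420, 373 and 398 in vehicle, again with no overlap and a ratio of 1.44. The log2 difference on that scale was 0.52 (SE 0.20, adjusted p = 0.295 by limma). After the trend of each library with transcript length was subtracted it was 0.62 (SE 0.16, adjusted p = 0.203 by limma), also without overlap.

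The promoters of the members that separated, Sqstm1 and Wipi1, and of Gabarapl1, which was lower in 25-HC than in vehicle 3, are shown. These members were picked by their values, and the groups of Gabarapl1 overlapped as deposited (log2 difference 0.17). Each line gives the 250 bases before the RefSeq start site of build GRCm38.p6, 5′ to 3′ in the direction of the gene, with every GC box (GGGCGG on either strand) in capitals. The Sqstm1 stretch is chr11:50210821-50211070 on the minus strand, the Wipi1 stretch chr11:109611390-109611639 on the minus strand and the Gabarapl1 stretch chr6:129532942-129533191 on the plus strand.
Sqstm1: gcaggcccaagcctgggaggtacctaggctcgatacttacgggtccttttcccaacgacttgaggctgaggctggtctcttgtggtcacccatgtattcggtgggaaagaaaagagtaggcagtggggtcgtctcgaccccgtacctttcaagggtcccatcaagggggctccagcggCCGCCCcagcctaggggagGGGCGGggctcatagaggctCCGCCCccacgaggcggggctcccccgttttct
Wipi1: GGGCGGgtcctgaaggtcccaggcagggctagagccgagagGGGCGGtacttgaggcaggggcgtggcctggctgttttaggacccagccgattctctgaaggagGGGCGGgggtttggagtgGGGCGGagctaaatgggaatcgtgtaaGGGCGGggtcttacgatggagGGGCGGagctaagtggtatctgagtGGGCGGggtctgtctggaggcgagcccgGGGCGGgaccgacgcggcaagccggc
Gabarapl1: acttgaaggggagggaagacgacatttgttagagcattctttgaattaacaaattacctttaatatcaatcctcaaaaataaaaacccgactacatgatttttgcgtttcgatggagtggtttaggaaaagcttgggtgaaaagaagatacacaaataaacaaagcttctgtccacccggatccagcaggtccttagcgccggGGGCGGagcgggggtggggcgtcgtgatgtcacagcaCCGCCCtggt
Of the 10 members 9 matched a RefSeq promoter, with 10 stretches between them, as Nbr1 has more than 1. At least 1 GC box was in 7 of these 10 stretches, each of a different member. Of all 32851 promoter stretches of that length, which are not limited to expressed genes, 32.7% held one. The E-box CACGTG, the antioxidant element core TGACNNNGC and the amino acid response element TGATGNAA, each searched on both strands, were in none of the 9 members. They were in 6.02%, 10.2% and 3.45% of all stretches. The TATA box TATAAA was also in none of the 9 members, and in 12.4% of all stretches. These matches describe letters in this window and were not tested against expression.

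Nbr1 (ENSMUSG00000017119), a receptor with a domain order like that of p62, was at 20.1, 20.1 and 23.9 TPM in the 25-HC libraries and at 9.66, 2.96 and 20.8 TPM in vehicle. Vehicle 3 lay within the range of the treated libraries, so the groups overlapped, while vehicle 1 and 2 lay below it. The log2 difference was 1.20 (SE 0.62, adjusted p = 0.389 by limma), 0.55 without vehicle 2 and 0.030 against vehicle 3 alone. Optn (ENSMUSG00000026672), the gene of optineurin, a receptor for ubiquitinated bacteria and mitochondria, was listed at 0.05 TPM in 25-HC 1 and at 0 in the other 5 libraries. It did not pass the filter and no fold is given. Sqstm1 thus made up 97.3%, 97.3% and 96.8% of the summed TPM of the 3 receptors in 25-HC and 97.7%, 98.2% and 96.2% in vehicle. These shares overlapped (difference -0.224 percentage points, two-sided exact permutation p = 0.8, n = 3 each, where 3 libraries against 3 cannot go below 0.1).

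Of the LC3 genes, Map1lc3b (ENSMUSG00000031812), which encodes the standard autophagosome marker LC3B, was at 75.7, 78.1 and 75.1 TPM in 25-HC and at 80.6, 86.5 and 49.4 TPM in vehicle. The treated libraries lay between vehicle 3 and the other vehicle libraries. Its log2 difference of 0.12 (SE 0.27, adjusted p = 0.763 by limma) turned to -0.13 when vehicle 3 was left out. Median-ratio rescaling gave -0.51, quantile normalization -0.10 and the correction for length -0.57. With vehicle 3 as the only vehicle library it was 0.62. Map1lc3a (ENSMUSG00000027602), the paralog LC3A, was far lower, at 4.42, 4.23 and 3.04 TPM in 25-HC and 5.91, 7.12 and 4.34 TPM in vehicle. It was the member with the most negative difference, -0.46 (SE 0.30, adjusted p = 0.397 by limma). The size depended on the setting, with -1.01 on the median-ratio scale, -1.09 after quantile normalization, -0.58 with length correction and -0.14 against vehicle 3 alone. On the median-ratio scale vehicle 2 stood at 16.8, against 6.11 in vehicle 1 and 3.30 in vehicle 3. The sign of Map1lc3a was negative in every setting that tested it. As deposited, the groups touched only through 25-HC 1 and vehicle 3. After median-ratio rescaling, quantile normalization and length correction 25-HC 2 lay above vehicle 3 as well.

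Of the GABARAP subfamily, Gabarap (ENSMUSG00000018567) was the most abundant ATG8-like gene, at 309, 326 and 302 TPM in 25-HC and at 337, 438 and 253 TPM in vehicle. Its log2 difference of -0.096 (SE 0.24, adjusted p = 0.782 by limma) was 0.099 without vehicle 2 and 0.31 against vehicle 3 alone. It was -0.73 on the median-ratio scale and -0.31 with length correction. Gabarapl2 (ENSMUSG00000031950), also known as GATE-16, was at 62.4, 57.9 and 66.6 TPM in 25-HC and at 61.5, 29.0 and 64.0 TPM in vehicle. Vehicle 2 alone lay below the treated range, and the difference of 0.35 (SE 0.35, adjusted p = 0.505 by limma) was -0.012 without that library and -0.27 after median-ratio rescaling. RefSeq lists 6 pseudogenes of Gabarapl2, of which 5 were in the table, 4 of them at 0 in every library and the other at no more than 0.27 TPM. How reads shared with such copies were assigned is not given in the sources used here.

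Gabarapl1 (ENSMUSG00000030161), a stress-inducible member of the subfamily, was at 41.3, 38.6 and 42.3 TPM in 25-HC and at 44.3, 17.3 and 59.9 TPM in vehicle. Vehicle 1 and 3 lay above every treated library and vehicle 2 below them all. The means were nearly equal, at 40.7 ± 1.93 TPM in 25-HC and 40.5 ± 21.6 TPM in vehicle (SD, n = 3 each), and the log2 difference of 0.17 (SE 0.46, adjusted p = 0.797 by limma) was -0.33 without vehicle 2. After median-ratio rescaling it was the only member below every vehicle library, with 32.5, 31.0 and 33.4 in 25-HC against 45.8, 40.9 and 45.5 in vehicle (log2 difference -0.44, SE 0.16, unadjusted p = 0.0309, adjusted p = 0.295 by limma). On that scale 18.1% of all genes tested lay below in this way and 18.4% above. Length correction gave -0.20 with overlap.

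Taking the ATG8-like genes as a whole, their TPM summed to 493, 505 and 489 in 25-HC and to 529, 577 and 430 in vehicle (two-sided exact permutation p = 0.7, n = 3 each). The GABARAP subfamily held 83.7%, 83.7% and 84.0% of that sum in 25-HC, against 83.6%, 83.8% and 87.5% in vehicle 1, 2 and 3 (difference -1.16 percentage points, two-sided exact permutation p = 0.8). Only vehicle 3 stood apart, and without it the difference was 0.108. After length correction it was 3.31. Map1lc3b alone held 15.4%, 15.5% and 15.4% in 25-HC and 15.2%, 15.0% and 11.5% in vehicle. Vehicle 2 had the smallest shares of Gabarapl1 (2.998%) and Gabarapl2 (5.02%) and the largest of Gabarap (75.8%). For 1 library the ratio of Sqstm1 to the ATG8-like sum does not depend on the scaling between libraries. A trend with transcript length does not cancel in it, and no length-corrected ratio was computed. The ratio was 1.45, 1.43 and 1.47 in 25-HC and 0.767, 0.273 and 1.22 in vehicle, with no overlap (two-sided exact permutation p = 0.1, the smallest this design allows). This ratio was chosen after its values were seen.

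**Figure D2:**
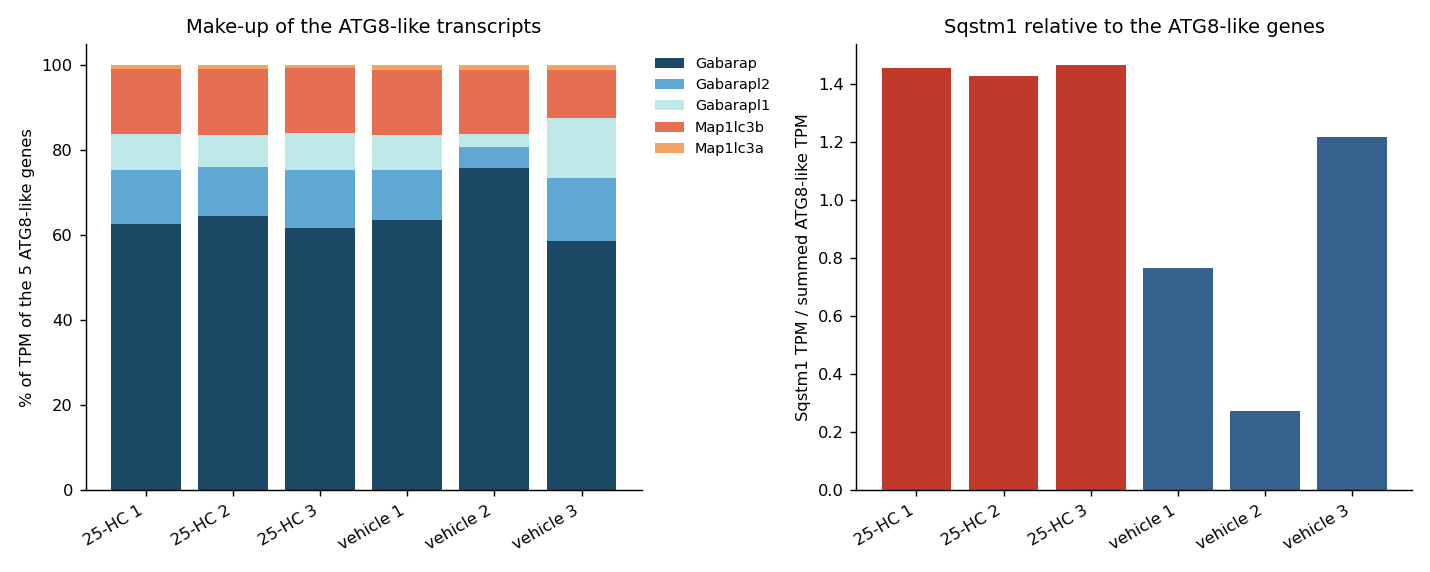
Left, the percentage of the summed TPM of the 5 ATG8-like genes held by each gene in each library; right, the ratio of Sqstm1 TPM to that sum in 25-HC (red) and vehicle (blue) libraries. Gabarap holds 58.7% to 75.8% everywhere, and the ratio is 1.43 to 1.47 in 25-HC and 0.273 to 1.22 in vehicle.

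Upstream of the receptors, Ulk1 (ENSMUSG00000029512), the kinase that starts autophagosome formation, was at 9.50, 6.49 and 7.26 TPM in 25-HC and at 4.16, 1.48 and 7.05 TPM in vehicle. The groups overlapped through 25-HC 2 and vehicle 3. Its log2 difference was 0.89 (SE 0.48, adjusted p = 0.389 by limma), 0.43 without vehicle 2 and 0.11 against vehicle 3 alone. Wipi1 (ENSMUSG00000041895), which binds phosphatidylinositol 3-phosphate on the forming membrane, was at 5.02, 4.76 and 4.17 TPM in 25-HC and at 2.20, 0.45 and 3.98 TPM in vehicle. Every treated library lay above every vehicle library, although 25-HC 3 and vehicle 3 were close. The log2 difference was 0.99 (SE 0.48, adjusted p = 0.389 by limma) and 0.50 without vehicle 2. It was 0.64 on the median-ratio scale and 0.37 once the length trend was subtracted, and set against vehicle 3 alone it was 0.18. The groups stayed apart in each of these settings.

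**Figure D3:**
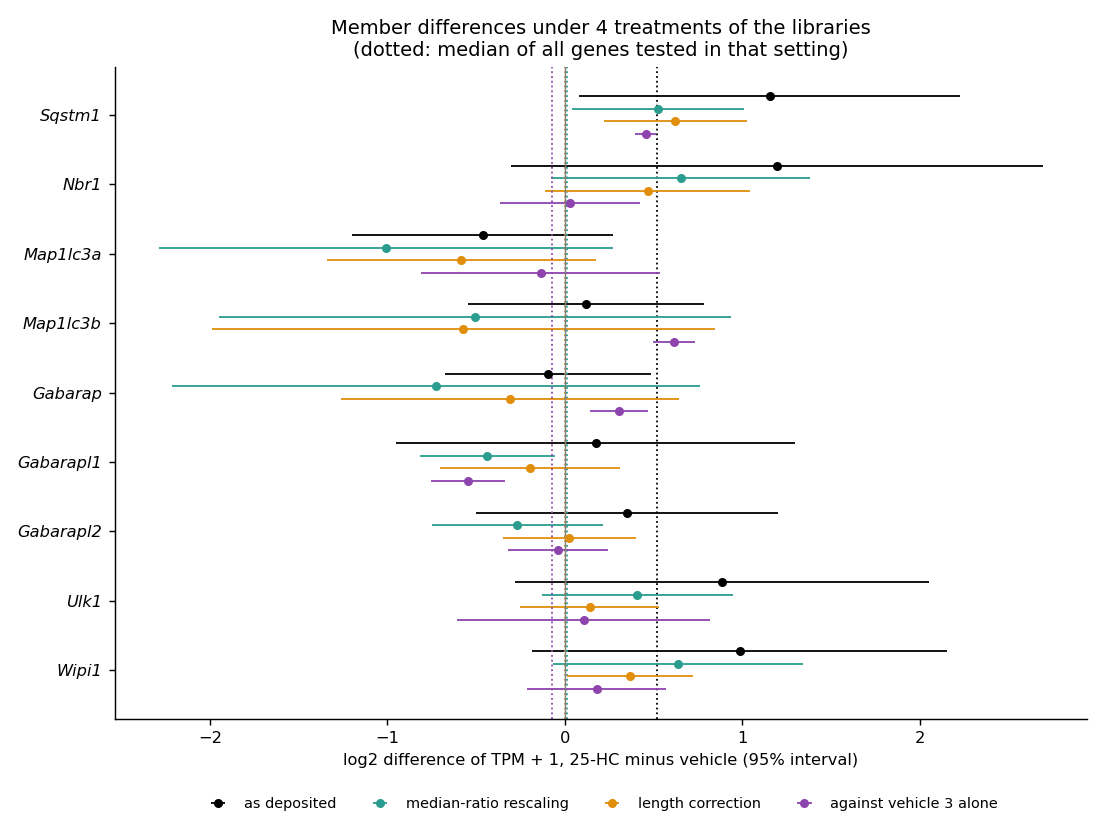
Log2 difference of TPM + 1, 25-HC minus vehicle, with its 95% interval from limma, for the 9 members tested, as deposited (black), with median-ratio rescaling (teal), with length correction (orange) and with vehicle 3 as the only vehicle library (purple); dotted lines give the median of all genes in each setting. Sqstm1 is above 0 in all 4 (0.46 to 1.15), Map1lc3a is below 0 in all 4, and the other ATG8-like genes change sign between settings.

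As the vehicle libraries were scattered, the members were also compared with vehicle 3 alone, which assumes that this lone library varies like the 25-HC libraries. In that setting limma called 10.9% of all genes, and 3 of the 9 members passed. Sqstm1 was higher in 25-HC (log2 difference 0.46, adjusted p = 0.0143), as was Map1lc3b (0.62, adjusted p = 0.0191), and Gabarapl1 was lower (-0.55, adjusted p = 0.0395). The median of all genes there was -0.071, and 28.5% of all genes lay above vehicle 3 in every 25-HC library and 45.7% below, against 4 members above (Sqstm1, Map1lc3b, Gabarap and Wipi1) and 1 below (Gabarapl1). Without vehicle 3, in contrast, 4 members lay above both remaining vehicle libraries (Sqstm1, Nbr1, Ulk1 and Wipi1) and 3 below (Map1lc3a, Map1lc3b and Gabarap), against 59.5% and 13.2% of all genes. Limma passed none of the members there, and 5.97% of all genes.

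In vehicle 1 and 2, but not in vehicle 3, the level of all genes relative to 25-HC declined with transcript length, and its part in the members' differences was not tested beyond the correction above. The longest annotated transcript was 1112 bases for Map1lc3a, 1351 for Gabarap, 1677 for Gabarapl2, 1820 for Gabarapl1, 2673 for Sqstm1, 3338 for Wipi1, 4138 for Map1lc3b, 4789 for Nbr1 and 5213 for Ulk1. In vehicle 2, relative to the 25-HC mean, all genes of the length of Sqstm1 had a trend of -1.33 on the log2 scale and Sqstm1 itself was at -2.18. In the same library Nbr1 was at -2.49 where the trend was -1.59, and Wipi1 at -1.96 where it was -1.47. Also in vehicle 2, Map1lc3b was at 0.18 where the trend was -1.56, Gabarap at 0.49 where it was -0.68 and Map1lc3a at 0.74 where it was -0.47. In vehicle 1 the trend at the length of Sqstm1 was -0.33 and Sqstm1 was at -0.82. The trend was between 0.034 and 0.067 at these lengths in vehicle 3, where Sqstm1 was at -0.46, Map1lc3b at -0.62 and Gabarapl1 at 0.55. The longest transcript need not be the form the cells express. For Sqstm1 the distance below the trend was -0.49 in vehicle 1, -0.85 in vehicle 2 and -0.52 in vehicle 3.

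**Figure D4:**
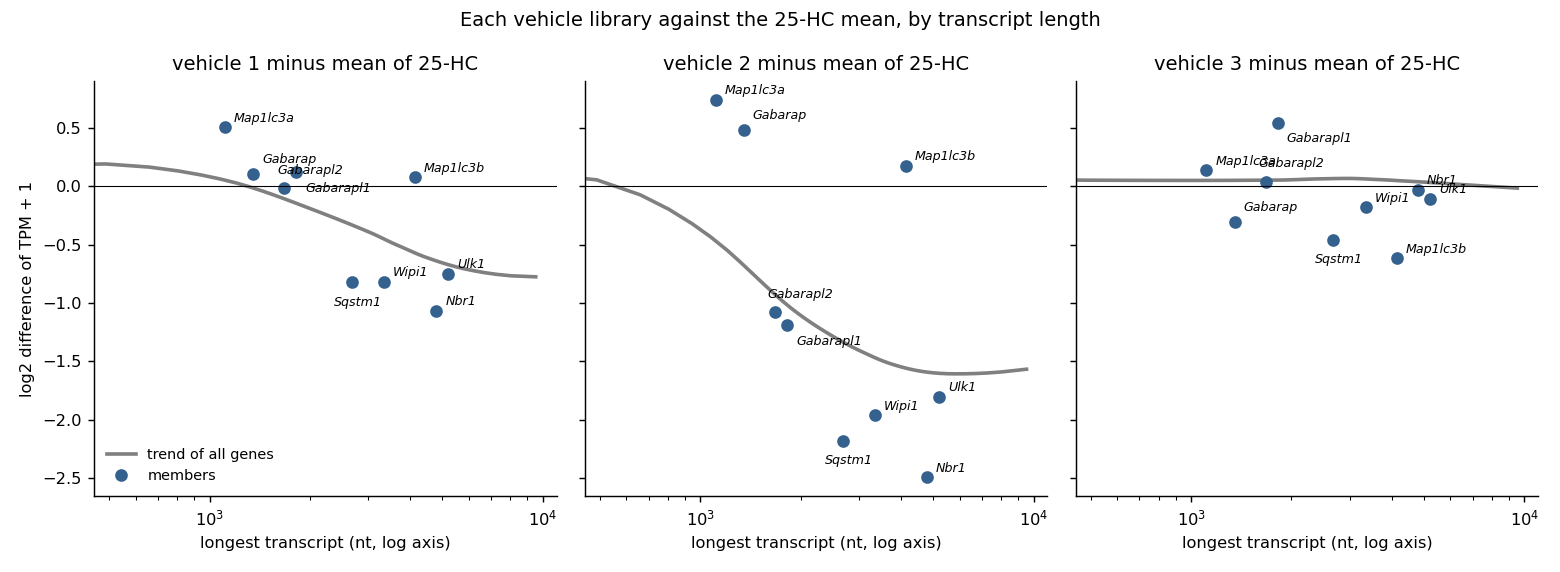
Each vehicle library minus the mean of the 25-HC libraries (log2 of TPM + 1) against the longest transcript of the gene (log axis); the grey line is the loess trend of all genes tested that have a length, the points are the 9 members tested. Sqstm1 lies below the line in all 3 vehicle libraries, and Map1lc3b lies above it in vehicle 1 and 2 and below it in vehicle 3.

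Of 68 other autophagy genes, sorted by role, 65 passed the filter. As deposited, none passed the limma test over all genes, and 60 had a log2 difference above 0, as did most genes. Of all genes, 29.7% lay at or below 0.12, the difference of Map1lc3b. The median difference of the 65 was 0.91, against 0.52 for all genes and 0.35 for the 9 members. Every 25-HC library was above every vehicle library for 26 of the 65 (40.0%), against 22.6% of all genes. Below every vehicle library lay 1, against 8.10% of all genes. It was the fusion SNARE gene Vamp8, which was chosen after its values were seen (151, 151 and 148 TPM in 25-HC, 212, 270 and 162 TPM in vehicle). After median-ratio rescaling 22 lay above and 4 below (33.8% and 6.15%), against 18.4% and 18.1% of all genes, with a median of 0.35. Length correction gave 23 above and 7 below, against 17.1% and 18.7% of all genes, and a median of 0.34. Against vehicle 3 alone the median was -0.026, against -0.071 for all genes, with 26 above and 26 below (40.0% each), against 28.5% and 45.7% of all genes. In that setting limma called 7 of the 65, where it called 10.9% of all genes.

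Other cargo receptors and their kinase had a median of 1.08 over 15 genes tested, against 0.52 for all genes. Of the 15, 7 lay above every vehicle library (46.7%, against 22.6% of all genes). The gene with the smallest p of this list, and of all 68, was Tax1bp1, a receptor that binds ubiquitin and recruits the autophagy machinery. It was at 5.40, 5.21 and 5.62 TPM in 25-HC and at 1.65, 0.68 and 2.71 TPM in vehicle, with no overlap (log2 difference 1.33, SE 0.36, unadjusted p = 0.00907, adjusted p = 0.389 by limma). Its difference was 0.93 on the median-ratio scale and 0.79 when set against vehicle 3 alone. Genes that supply membrane to the growing structure had a median of 1.16 over 8, of which 3 separated upward (37.5%, against 22.6% of all genes). Their smallest p was that of Tmem41b, a lipid scramblase of the endoplasmic reticulum, at 53.2 ± 6.46 TPM in 25-HC and 21.0 ± 17.3 TPM in vehicle (SD, n = 3 each).

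The PI3K complex, which makes phosphatidylinositol 3-phosphate, had a median of 0.90 over 8 genes, against 0.52 for all genes. Of the 8, 1 separated upward (12.5%, against 22.6% of all genes). It was Pik3r4, the regulatory subunit of the complex (6.24 TPM in 25-HC, 3.75 TPM in vehicle, as means). None of the 8 separated on the median-ratio scale, where 18.4% of all genes lay above and 18.1% below. Their median there was 0.37 and the difference of Pik3r4 was 0.12, against 0.63 as deposited. Length correction gave a median of 0.22. The other initiation genes had a median of 0.62 over 3 with none separated, and Ulk2, the paralog of Ulk1, had the smallest p at 3.63 TPM in 25-HC and 1.89 TPM in vehicle. The conjugation genes that couple ATG8-like proteins to lipid had a median of 0.54 over 11. Of these, 4 separated upward (36.4%, against 22.6% of all genes). Their median was -0.054 after median-ratio rescaling. Atg12, itself a ubiquitin-like protein of that system, was at 7.74, 8.49 and 8.59 TPM in 25-HC and at 4.34, 0.88 and 6.86 TPM in vehicle. Fusion genes had a median of 0.98 over 8, of which 4 separated upward (50%, against 22.6% of all genes). Among the 4 was Epg5, a tether of autophagosomes to lysosomes, at 3.40 TPM in 25-HC and 0.793 TPM in vehicle.

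Transcription factors and kinases that act on the pathway had a median of 0.82 over 12 genes, of which 7 separated upward, against 22.6% of all genes. On the median-ratio scale the median was 0.28, with 4 above and 1 below, against 18.4% and 18.1% of all genes, and with length correction it was 0.058, with 6 genes higher and 6 lower by their means. Ddit3 (CHOP), a stress-induced transcription factor, had the smallest p of this list (0.0133 unadjusted, adjusted p = 0.389 by limma), at 615, 795 and 1087 TPM in 25-HC and 224, 26.2 and 220 TPM in vehicle. Nfe2l2, chosen after its values were seen, encodes NRF2, a known activator of Sqstm1 transcription that SQSTM1 protein in turn frees from KEAP1. It was at 27.5, 28.6 and 28.9 TPM in 25-HC and at 8.34, 1.38 and 13.0 TPM in vehicle, and separated after median-ratio rescaling too (log2 difference 1.62). Tfeb, a lysosomal and autophagy gene activator also chosen after its values were seen, was at 11.6, 12.1 and 11.9 TPM in 25-HC and 10.88, 6.95 and 10.97 TPM in vehicle. Its difference was 0.30 as deposited and -0.27 after median-ratio rescaling, where the groups overlapped.

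**Figure D5:**
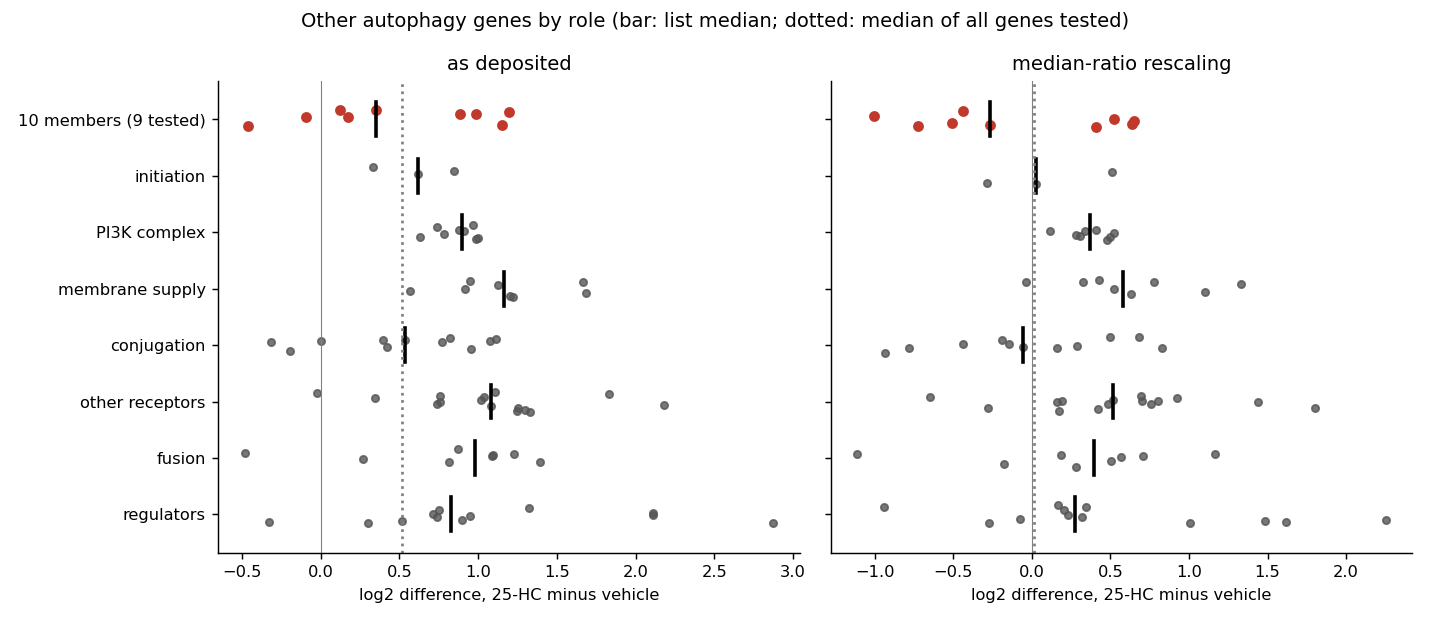
Log2 difference, 25-HC minus vehicle, of the 9 members tested (red) and of 65 other autophagy genes by role (grey), as deposited (left) and after median-ratio rescaling (right); black bars are medians and dotted lines the median of all genes tested. The members' median lies below that of all genes in both, at 0.35 and -0.27. Those of the PI3K complex, membrane supply, other receptors, fusion genes and regulators lie above it in both. So does that of initiation, by little at right (0.027 against 0.013).

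Of 8435 other genes averaging 5 TPM or more, those whose centred log2 values over the 6 libraries lay nearest to Sqstm1 were 4930430E12Rik, Pnrc1 and Laptm4a, at root mean square distances of 0.042, 0.050 and 0.050. Among the members Wipi1 was nearest (0.13), then Ulk1 (0.22) and Nbr1 (0.25), while Map1lc3a was farthest (1.07). Laptm4a, as an example, was at 114, 115 and 113 TPM in 25-HC and 68.4, 23.7 and 88.3 TPM in vehicle.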

How the data were processed

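RNA of RAW264.7 cells treated for 24 h was measured in 3 libraries with 25-HC and 3 with vehicle, grouped and numbered by the sample titles. The kit was Illumina's TruSeq RNA, per the labels' protocols. The submitters' processing notes name RSEM, HISAT2, StringTie and the build GRCm39, with no versions or roles. Strand setting and annotation release: not given in the sources used here. In the table, the authors deposited TPM per gene, at a resolution of 0.01 and a total of about 1000000 per library. TPM keeps no depth, so no counting interval was computed, and 11 further columns were empty.

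The 12092 genes averaging 1 TPM or more were tested by limma (3.58.1, under R 4.3.3) after taking log2(TPM + 1) (eBayes with trend, two-sided, Benjamini-Hochberg over all genes, threshold 0.05, no block). All log2 differences use this scale, and changes of low genes are understated on it. Shares were tested by exact permutation. Separation means that the groups' ranges do not overlap. Length correction subtracts a loess trend per library (span 0.75, degree 2) on the longest GENCODE M21 transcript, matched for 92.1% of tested genes. That build differs from the authors', so only lengths were used. Promoters are RefSeq's, GRCm38.p6. The members, lists, settings and the rule for named genes (all members, the smallest p per list, the 3 nearest profiles) were chosen with earlier results of these data known. Other settings were pseudocounts 0.1 and 5, other filters, median-ratio and quantile scaling, no variance trend, robust moderation, a replicate block and leaving out libraries. The test was run on simulated data first. Other software was Python 3.11.15 with scipy 1.17.1, numpy 2.4.6, pandas 2.3.3 and matplotlib 3.10.9.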

Additional observations from a re-analysis of the deposited data

How the results depend on the processing

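TPM hides depth, the 3 vehicle libraries were scattered, and no member passed limma over all genes in any setting except against vehicle 3 alone, so the members' values describe these libraries. The number of all genes called, 1 in the main setting, was 0 with a pseudocount of 5, with no filter, with a mean of at least 5 TPM and with the replicate block, 2 after median-ratio rescaling, 5 after quantile normalization, 19 after length correction, 1312 against vehicle 3 alone, and 0 to 722 when 1 library was left out (722 without vehicle 3, 13 without vehicle 2). The main setting had 1352 genes at an unadjusted p under 0.05 and the block 1163. Samples with the same number showed little shared deviation (r of -0.013, 0.056 and 0.030 for numbers 1, 2 and 3). Numbers 2 and 3 correlated best with their own number, and number 1 with number 3. With 3 libraries per group and scattered vehicle libraries, these values cannot show whether the number is a pairing. No member was called in the main setting or with the block.

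Of the members, 2 separated upward in the main setting, against 22.6% of all genes, and 1 with a mean of at least 5 TPM, where Wipi1 is not tested. After quantile normalization 3 did (Sqstm1, Nbr1 and Wipi1). Set against vehicle 3 alone 4 did, where 28.5% of all genes did. When 1 library was left out 2 to 4 did, with 4 without vehicle 3, where 59.5% of all genes did. No share of all genes is given for the 5 TPM filter, quantile normalization or the other left-out libraries. Those counts of members therefore have no background. The members' median, 0.35, was -0.27 after median-ratio rescaling, 0.021 after quantile normalization, 0.024 with length correction, 0.11 against vehicle 3 alone, and 0.27 to 0.55 when 1 library was left out. Sqstm1, Nbr1, Ulk1 and Wipi1 stayed above 0 and Map1lc3a below 0 in every setting that tested them. Map1lc3b turned to -0.51 after median-ratio rescaling, -0.10 after quantile normalization, -0.57 after length correction, and ranged from -0.13 (without vehicle 3) to 0.27 when 1 library was left out. Gabarapl1 turned to -0.44, -0.27 and -0.20 in the same 3 settings and to -0.55 with vehicle 3 as the only vehicle library, and ranged from -0.33 (without vehicle 2) to 0.53. Gabarapl2 turned to -0.27 on the median-ratio scale and to -0.041 against vehicle 3 alone, and ranged from -0.012 (without vehicle 2) to 0.55. Gabarap turned to 0.31 against vehicle 3 alone and ranged from -0.30 to 0.099 (without vehicle 2). The difference in the GABARAP share, -1.16 percentage points, was 3.31 after length correction and -1.82 to 0.108 when 1 library was left out. The difference in the Sqstm1 share, -0.224, was 0.253 after length correction, 0.937 against vehicle 3 alone and -0.805 to 0.187 when 1 library was left out. The cause of these turns was not tested.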
